A study of Mus musculus with 3 samples.

Results

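CD4 T cells that remained in the spleen after T-cell depletion were described here from 77 cells among 47453 kept barcodes of 3 single-cell RNA libraries. A barcode was kept with more than 200 and fewer than 3500 genes detected, under 15% of its UMIs from mitochondrial genes, and a top hashtag with at least 3 times the UMIs of the second. UMIs (unique molecular identifiers) count captured RNA molecules, and hashtags are antibody labels that carry a countable sequence. Of these barcodes, CD4 T cells were selected on 1 or more UMIs of Cd3d, Cd3e and Cd3g together, 1 or more of Cd4, and 0 of Cd8b1, Cd79a, Lyz2, Ncr1 and Siglech, the genes that mark CD8 T cells, B cells, myeloid cells, NK cells and plasmacytoid dendritic cells. The rule thus used measured values, and the levels of those 9 genes are a description only.

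All spleens came from mice 12 to 14 weeks old and were passed over CD3 microbeads before loading. The control library mixed sham-treated male C57BL/6 mice, given 2-week minipumps at 10 weeks of age, with female C57BL/6 mice. The Ang II library mixed C57BL/6 mice given angiotensin II by the same kind of pump with mice given angiotensin II and 2-HOBA, an isolevuglandin scavenger. The B6.SLE123 library mixed mice of that lupus-prone strain without and with 2-HOBA, dosed for 6 weeks from 7 weeks of age. Each condition pooled 3 mice. None of the 6 hashtags (C0301 to C0306) was tied to a condition, so the pooled conditions could not be separated and 2-HOBA was not analysed here. No test between groups was possible with a single library for each, and every interval below is a 95% interval of counting error only.

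CD4 T cells are the helper arm of adaptive immunity. Their T-cell receptor reads peptides on MHC class II through the CD3 complex and the kinase Lck, with CD4 as co-receptor. Naive cells recirculate through lymphoid organs using homing receptors such as Ccr7 and are held in a quiescent, long-lived state by Tcf7, Lef1, Klf2 and the IL-7 receptor. After antigen they become effector, follicular helper, regulatory or memory cells, which lose much of that programme. In hypertension and lupus, T cells and the dendritic cells that prime them are both studied as drivers of inflammation.

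The CD4 T cells were nearly all in the Ang II library, and there nearly all carried 1 hashtag. The control library held 2 CD4 T cells of 15957 kept barcodes (0.0125%, interval 0.00152 to 0.0453%). The Ang II library held 74 of 13982 (0.529%, interval 0.416 to 0.664%), and the B6.SLE123 library held 1 of 17514 (0.00571%, interval 0.000145 to 0.0318%). On the log2 scale the Ang II share was 5.40 above the control share (interval 3.50 to 8.47) and 6.53 above the B6.SLE123 share (interval 4.01 to 11.86). One control cell and 1 Ang II cell went against the T-cell label, as described below. Without them the control library held 1 of 15956 (0.00627%) and the Ang II library 73 of 13981 (0.522%), a log2 difference of 6.38 (interval 3.86 to 11.70).

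Within the Ang II library, hashtag C0303 carried 72 of the 74 cells, which was 3.02% of its 2385 kept barcodes (interval 2.37 to 3.79%). Hashtags C0302 and C0306 carried 1 each and the other 3 carried none. Of the 18 hashtag populations of the series, 12 held no CD4 T cell. Without C0303 the Ang II share was 2 of 11597 barcodes, or 0.0172% (interval 0.00209 to 0.0623%), and its log2 difference from control was 0.46 with an interval from -3.33 to 4.25, which spans 0. Leaving out these 2 cells as well, 1 of 11596 Ang II barcodes remained (0.00862%), with a log2 difference of 0.46 (interval -5.83 to 6.76). The difference between libraries therefore rested on that hashtag population.

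**Figure D1:**
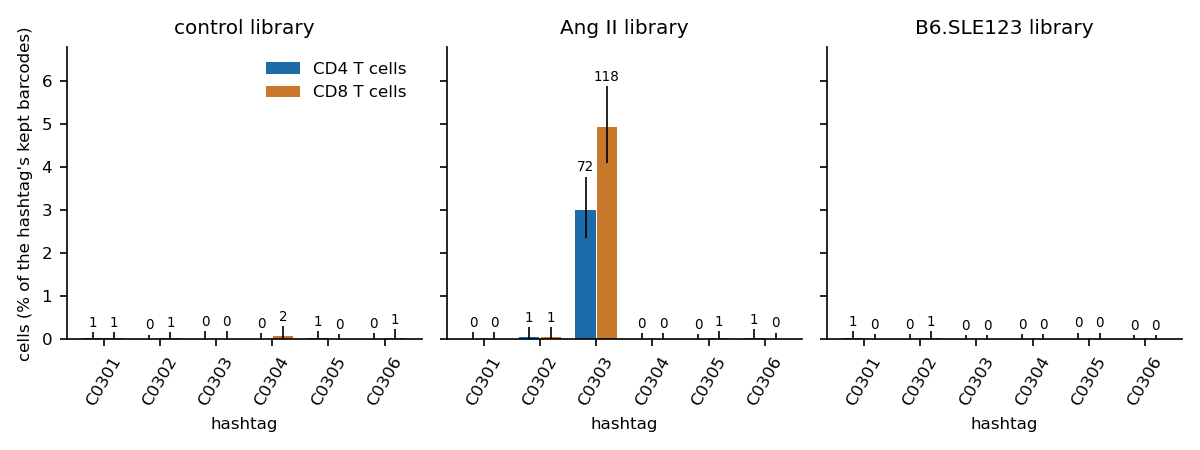
CD4 T cells (blue) and CD8 T cells (orange) as a percent of the kept barcodes of each hashtag, on the y axis, for the 6 hashtags of each of 3 libraries. Lines are Clopper-Pearson 95% intervals and numbers are cells. In the Ang II library, hashtag C0303 held 72 CD4 and 118 CD8 T cells, and no other hashtag of the series held more than 2 of either kind.

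The other T-cell gates moved with it. CD8 T cells (1 or more Cd8b1, 0 Cd4) numbered 120 in the Ang II library, against 5 in the control and 1 in the B6.SLE123 library, with 118 of the 120 in C0303, and barcodes with CD3 UMIs but neither co-receptor numbered 80, against 19 and 13. All CD3-positive gates together made up 263 barcodes, 11.03%, of Ang II C0303, against at most 0.383% of any other hashtag population. The Ang II library held 0.617 CD4 T cells per CD8 T cell (interval 0.455 to 0.831). This ratio is one of gated cells and depends on the gates, each of which needs a UMI of 1 co-receptor gene. Over the 74 CD4 T cells Cd4 had 139 UMIs, and over the 120 CD8 T cells Cd8b1 had 777. How many cells of either kind the gates missed was not tested. Cd40lg was detected in 26.3% of the 80 barcodes with neither co-receptor, 31.1% of CD4 T cells and 2.5% of CD8 T cells. NK cells were not raised in the same way: they were 2.22% of Ang II C0303 and 2.22% of the whole Ang II library. Whether this hashtag marks 1 mouse, 1 pool or 1 depletion was not stated, and its condition could not be told from the labels.

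The rule's own thresholds left few cells near their edge except for Cd4. In the 74 Ang II cells the CD3 sum ran from 1 to 33 UMIs with a median of 9, and 4 cells had exactly 1. Cd4 ran from 1 to 8 UMIs with a median of 1, and 40 cells passed on a single Cd4 UMI. Just outside the rule lay 80 barcodes that met every term but had 0 Cd4, 16 that had Cd4 but no CD3 UMI, 6 that also had Cd8b1, 16 that also had Cd79a and 5 that also had Lyz2. The 74 cells had 634 to 9139 UMIs (median 4041) against a median of 2771 over all kept barcodes of that library, a median of 1503.5 genes, and a median of 1.57% mitochondrial UMIs. One of the 74 barcode sequences was also kept in another library, as were 658 of the 13982 kept barcodes.

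Markers that the rule did not use were found in nearly all of the 74 Ang II cells. Of 11 such genes (Cd247, Trac, Trbc1, Trbc2, Lck, Cd5, Cd6, Cd28, Thy1, Bcl11b and Themis), which encode receptor chains, signalling proteins and T-lineage factors, a median of 6 was detected per CD4 T cell, with a range of 0 to 10. At least 3 were detected in 70 of 74 CD4 T cells, in 87 of 311 NK cells and in 0 of 11038 B cells of the library, which allows a share of up to 0.0272%. The CD4-gated cell with none of the 11 was in C0303 and had 1 Cd3d and 1 Cd4 UMI among 634 UMIs. It had no H2-Aa UMI and was kept among the 74. A UMI of a TCR constant gene was found in 66 cells, and 5 of the remaining 8 had a TCR variable segment. No UMI of Trdc or the gamma constant genes Tcrg-C1, Tcrg-C2 and Tcrg-C4 was found in any of the 74 cells.

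Of the 5 CD4-gated cells outside Ang II C0303, 3 had 5 or more of the 11 markers and 2 had at most 1. The cell in control C0301 had 9 CD3 UMIs and 7 of the 11 markers, the cell in Ang II C0302 had 9 CD3 UMIs and 5 markers, and the cell in B6.SLE123 C0301 had 17 CD3 UMIs and 5 markers. The cell in control C0305 had 1 Cd3e and 1 Cd4 UMI, none of the 11 markers, and 65 H2-Aa and 163 Cd74 UMIs. The cell in Ang II C0306 had 1 Cd3d and 1 Cd4 UMI, 1 of the 11 markers, and 129 H2-Aa, 294 Cd74 and 12 Tyrobp UMIs among its 8505 UMIs. H2-Aa and Cd74 serve MHC class II antigen presentation, so these 2 barcodes went against the T-cell label. In the other 73 Ang II cells the highest H2-Aa count was 2. Shares, counts and ratios without this barcode are given beside those it changed most.

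Other cell types left few marker UMIs. The B-cell gene Cd79b was at 0 and Ms4a1 had 3 UMIs, although Ighm had 74 UMIs spread over 42 cells with at most 6 in any cell (Ighm was detected in 94.2% of B cells). Over the whole B-cell list, 3 of 10 genes were at 0 and the summed level was 1433 CPM (UMIs scaled to a common total), against 38368 in B cells, with 294 of the 438 UMIs being Cd74 in the C0306 barcode. Of 8 NK and ILC1 markers 6 were at 0, among them Klrb1c, Klre1 and Eomes, as well as Ncr1, which the rule holds at 0. The neutrophil genes S100a8 and S100a9 had 17 and 15 UMIs, at most 2 in any cell. Their part in the results below was not tested.

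The CD4 T cells as a group carried genes of naive and central memory cells. Of the 12 genes in the naive and central memory list, all were detected, and each was found in 25 to 59 of the 74 cells. Klf2 was found in 59 cells, Tcf7 in 58, Lef1 in 56, Il7r in 54 and Ccr7 in 47. S1pr1, the receptor that lets T cells leave lymphoid organs, was found in 42 and Igfbp4 in 41, while Dapl1 was found in 35. In B cells of the library Lef1, Tcf7, Il7r, Dapl1 and Igfbp4 were detected in 1.43%, 0.308%, 0.263%, 0.0453% and 0.0725%, which sets the background for those 5 genes. B cells express other members themselves, so no background could be set for these: Ccr7 was detected in 34.3%, S1pr1 in 34.1% and Klf2 in 67.4% of B cells. Foxp1 and Bach2 were detected in fewer CD4 T cells (55.4% and 33.8%) than B cells (73.5% and 39.2%), and the summed level of Foxp1 was 1.17 lower on the log2 scale than in all other barcodes (log2 ratio -1.17, interval -1.55 to -0.82).

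Shares of cells with a UMI depend on depth, so some were also read at equal depth. Ccr7 was detected in 63.5% of CD4 T cells (interval 51.5 to 74.4%), 63.3% of CD8 T cells (54.0 to 71.9%) and 34.3% of B cells, whose median depths were 4041, 4894 and 2776 UMIs. Thinned to 1000 UMIs per cell, which left out 1 CD4 T cell, the shares were 30.1%, 25.8% and 15.3%, and the CD4 and CD8 intervals overlapped. Cd44, the adhesion receptor that rises on activated and memory cells, was detected in 10 of 74 CD4 T cells (13.5%, interval 6.68 to 23.5%). It was detected in 7.5% of CD8 T cells, 28.9% of NK cells and 9.30% of B cells. Thinned, the shares were 4.11% of CD4 T, 4.17% of CD8 T and 3% of B cells. B cells can express Cd44 themselves, so no background could be set, and whether the 10 cells differ from one was not tested.

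Regulatory and follicular helper genes were found in few cells. Foxp3, the lineage factor of regulatory T cells, was detected in 2 of 74 cells (2.703%, interval 0.329 to 9.42%), against 1 of 120 CD8 T cells and 0.181% of B cells. Of the regulatory list, both Foxp3 cells also carried Ctla4 (2 and 1 UMIs), Tnfrsf18 (2 in each), Il2rb (1 in each), Capg (2 and 3) and Izumo1r (10 and 4), and both had 3 UMIs of Maf. Il2ra and Ccr7 were at 0 in both, and Ikzf2, Ikzf4, Tnfrsf4, Tnfrsf9, Nrp1 and Icos were at 0 in the first cell and detected in the second. Ikzf2, a factor shared by regulatory and some effector cells, was detected in 7 cells, and Ctla4 in 7. Cxcr5, the receptor that guides follicular helper cells to B-cell follicles, was detected in 4 of 74 cells (5.41%). It was detected in 6.67% of CD8 T cells and 0.322% of NK cells. The 32.8% of B cells with Cxcr5 is no background, because B cells express it themselves. Pdcd1 was detected in 5 cells and Icos, a costimulatory receptor, in 13.

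Helper cytokines were nearly absent from the counts. Il2, Il4, Il5, Il13, Il17a, Il17f, Il22 and Csf2 were at 0 in all 74 cells, so that for each gene up to 4.05% of such cells could carry a UMI. Ifng had 3 UMIs in 2 cells, Il21 had 3 UMIs in 1 cell and Tnf had 7 UMIs in 5 cells. The lineage factor Tbx21 of Th1 cells was also at 0, while Gata3 of Th2 cells had 6 UMIs in 4 cells. Ltb, a lymphotoxin gene that resting T cells also express, had 254 UMIs in 66 cells. The angiotensin receptor genes Agtr1a, Agtr1b and Agtr2 and the enzyme gene Ace were at 0, and of 10 renin-angiotensin genes only Lnpep (50 UMIs), Atp6ap2 (5) and Mas1 (1) were detected.

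A smaller set of cells had few of the naive genes, and most UMIs of some regulatory and effector genes lay in it. This division was chosen after the values were seen. Of the 12 naive list genes the cells had a median of 9, and 54 cells had 6 or more whereas 20 had fewer, of which 1 was the H2-Aa-rich barcode. It is a range rather than a type: 3 cells had exactly 5 and 3 exactly 6 of these genes. The 20 cells were also shallower, with a median of 2823 UMIs against 4274, and the part of depth in the division was not tested. Of the 17 activation and effector memory genes the 20 cells had a median of 8 and the 54 cells a median of 5, and the 20 cells held 438 of the 1102 UMIs of that list. Some naive genes remained in the 20 cells, with Klf2 in 12, Il7r in 8 and Tcf7 and S1pr1 in 7 each.

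**Figure D2:**
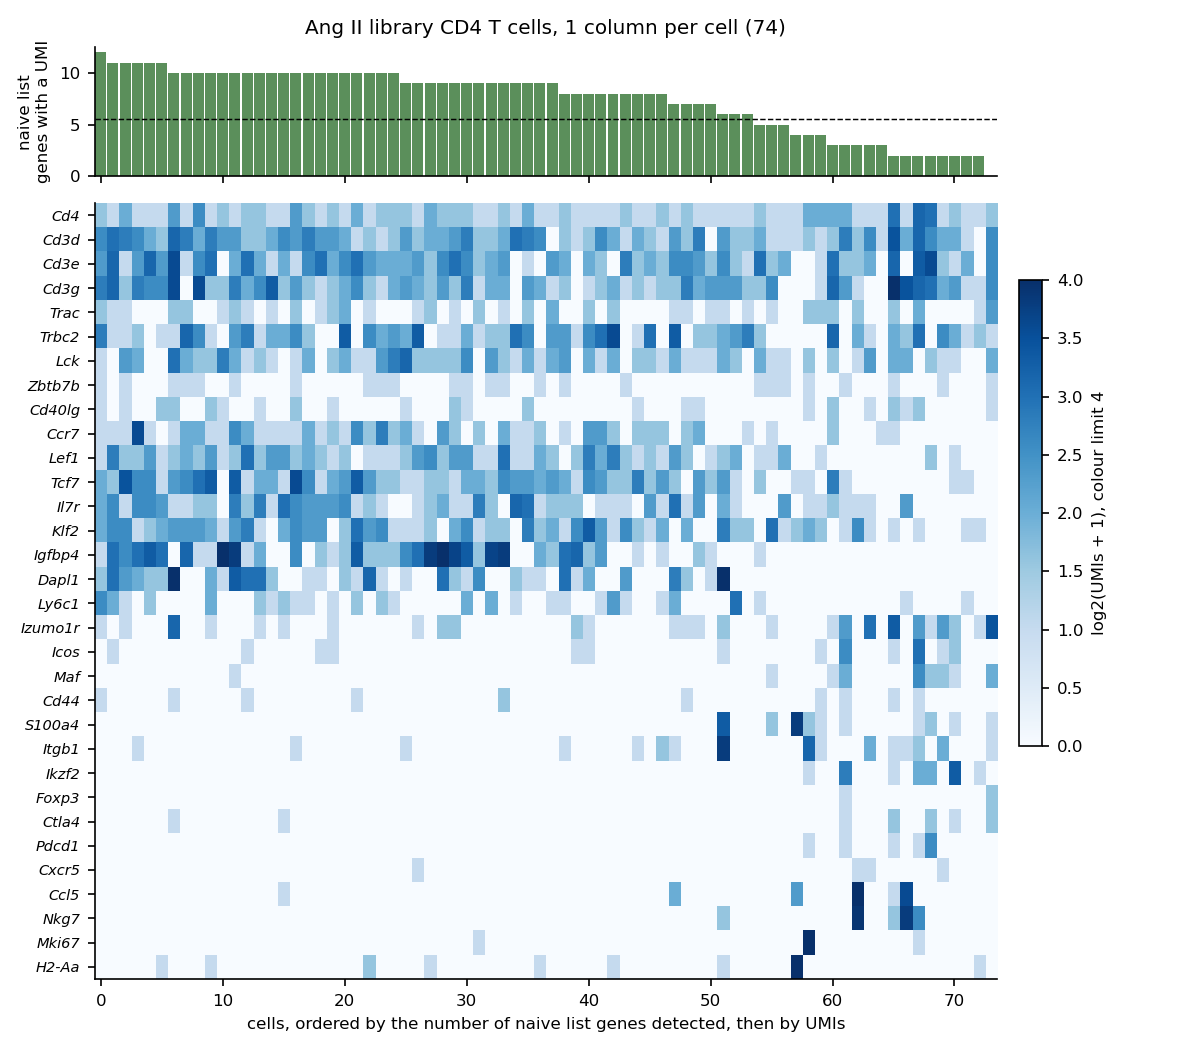
UMIs of 32 genes (rows) in each of the 74 Ang II CD4 T cells (columns), coloured by log2(UMIs + 1), below the number of naive list genes with a UMI in each cell. Cells are ordered by that number, and the dashed line separates 54 cells with 6 or more from 20 with fewer. UMIs of Ikzf2, Foxp3 and Pdcd1 lie only among the 20 cells on the right, and H2-Aa is dark in a single column.

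Among the 20 cells, Ikzf2 had 24 UMIs in 7 cells, Pdcd1 9 UMIs in 5 and Foxp3 3 UMIs in 2, and all 3 genes were at 0 in the 54 cells. Maf, a factor of follicular helper and IL-10-producing cells, had 18 UMIs in 8 of the 20 cells and 1 UMI in the 54, a log2 ratio of summed levels of 6.05 (interval 3.39 to 11.43). Il2rb, a chain of the IL-2 and IL-15 receptors, had 20 UMIs in 10 cells against 1 in 1, with a log2 ratio of 6.21 (interval 3.56 to 11.58). Ikzf2, Pdcd1, Foxp3, Maf and Il2rb belong to regulatory, follicular helper and memory programmes, and no cell type is named from them. Tigit, Cxcr5 and Mki67 also had 1 UMI in the 54 cells, against 6, 3 and 28 UMIs in the 20. Without the H2-Aa-rich barcode the log2 ratios of Maf and Il2rb were 6.26 and 6.41.

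Most members of the activation and effector memory list had a higher summed level in the 20 cells, but some did not. Ahnak had 46 UMIs in 9 of the 20 cells and 9 UMIs in 4 of the 54 (log2 ratio 4.24, interval 3.19 to 5.45), and S100a6 had 43 UMIs in 8 cells against 5 in 3 (4.99, interval 3.66 to 6.68). S100a4 had 24 UMIs in 9 cells against 9 UMIs in 1 cell, a log2 ratio of 3.30 that became 2.38 without the H2-Aa-rich barcode, which held 13 of its UMIs. Icos, Tnfrsf4, S100a11, Itgb1, Itgal, Id2, Lgals1 and S100a10 also had higher summed levels in the 20 cells. Their log2 ratios ran from 0.71 (S100a10) to 4.11 (Tnfrsf4), with intervals above 0. These intervals cover counts of UMIs and not differences between cells. S100a10 had 54 UMIs in 14 of the 20 cells and 122 UMIs in 43 of the 54. Lgals1 had 22 UMIs in 9 cells against 38 in 22. The 10 Id2 UMIs of the 20 cells lay in 2 cells. For Crip1, Vim, Cd69 and Cd44 the interval spanned 0 or lay below it. Crip1 had 43 UMIs against 236 (log2 ratio -0.57, interval -1.08 to -0.10), and Vim had 14 against 69 (-0.42, interval -1.36 to 0.43). Cd69 had 7 UMIs against 49 (log2 ratio -0.92, interval -2.31 to 0.23), and Cd44 had 4 against 7 (1.08, interval -1.14 to 3.05).

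Genes that mark the CD4 lineage or T-cell identity were found on both sides. Zbtb7b, the factor that sets the CD4 lineage, was detected in 8 of 20 and 17 of 54 cells, and Cd40lg, the ligand through which helper cells stimulate B cells, in 7 of 20 and 16 of 54. Their log2 ratios of 0.80 and 0.75 had intervals that spanned 0. Lck was detected in 13 of 20 and 45 of 54 cells, with a log2 ratio of -0.24 (interval -0.90 to 0.37). Ly6c1 lay on the naive side, with 53 UMIs in 25 of the 54 cells against 3 UMIs in 3 of the 20.

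**Figure D3:**
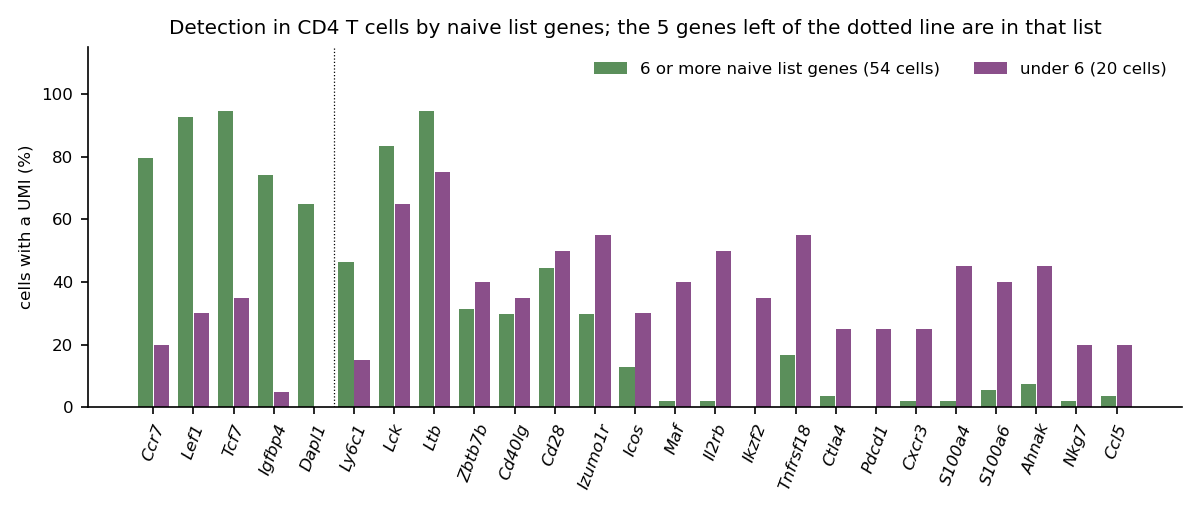
Percent of Ang II CD4 T cells with a UMI of each gene (y axis), for 54 cells with 6 or more naive list genes (green) and 20 cells with fewer (purple). The 5 genes left of the dotted line are in the list that made the division and differ by construction. Ikzf2 and Pdcd1 have no green bar, while Zbtb7b, Cd40lg and Cd28 are detected on both sides.

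Single cells decided some of the summed levels. Of 105 Ccl5 UMIs, 85 were in 1 cell and 11 in another, and Nkg7 had 36 UMIs of which the 2 highest cells held 14 and 13. Mki67, a proliferation gene, had 29 UMIs of which 27 were in 1 cell, which had 3 Top2a UMIs and 1 each of Pcna, Stmn1 and Birc5. Cdk1 and Ccnb2 were at 0 in all 74 cells. These levels describe 1 or 2 cells and not the group.

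To see what set the CD4 T cells apart from the other T cells that remained, their summed counts were compared with those of the 120 CD8 T cells of the Ang II library. The 74 CD4 T cells held 305628 UMIs and the CD8 T cells 589963. Of 2199 genes with at least 50 UMIs over both groups, 55 were 2-fold or more higher in CD4 T cells, 2.5% of the genes tested, and 41 were 2-fold or more lower, 1.86%. The median log2 ratio over all tested genes was 0.08. With ratios centred on their median, 41 genes were higher and 49 lower. Of the CD4 and CD8 T cells, 2 of each came from hashtags other than C0303. With C0303 cells only the comparison gave 48 higher and 36 lower genes, of which 45 and 36 were shared with the counts above, and without the C0306 barcode it gave 47 and 40.

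**Figure D4:**
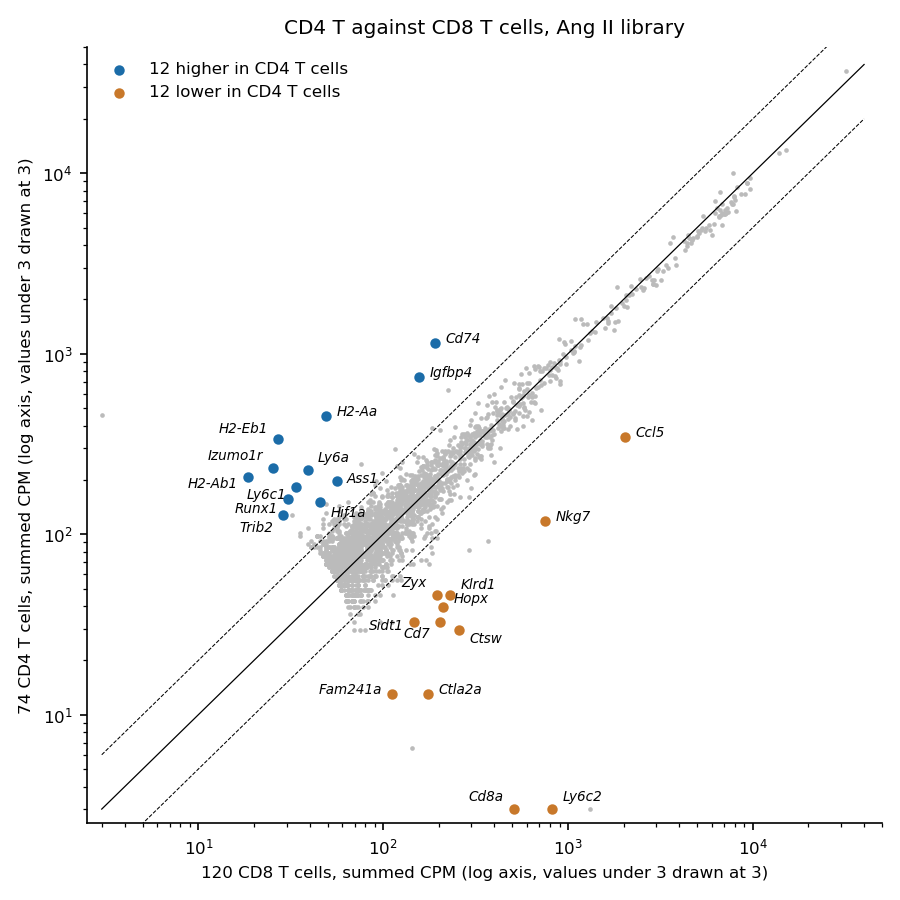
Summed level of each tested gene in CPM, UMIs scaled to a common total, in 120 CD8 T cells (x axis) and 74 CD4 T cells (y axis) of the Ang II library, on log axes with values under 3 drawn at 3. The solid line marks equal levels and the dashed lines 2-fold. The 12 named genes on each side are coloured. Cd8a and Ly6c2 were at 0 in CD4 T cells, and the grey points at the axes are genes that the gates use.

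Outside the gate genes, the 12 highest ratios held MHC class II genes, described next, and Izumo1r, Ly6a, Ly6c1, Runx1, Igfbp4, Trib2, Ass1 and Hif1a. Izumo1r (folate receptor 4, chr9:14885814-14903949), a surface protein of regulatory and anergic CD4 T cells, had 71 UMIs in 27 CD4 T cells and 15 UMIs in 8 CD8 T cells, a log2 ratio of 3.19 (interval 2.37 to 4.10). Igfbp4 (chr11:99041244-99054392), an IGF-binding protein of naive T cells, had 227 UMIs in 41 cells against 92 in 43 (2.25, interval 1.90 to 2.62). Runx1, a transcription factor of T-cell development, had 48 UMIs in 33 cells against 18 in 17 (2.36, interval 1.56 to 3.23). Ly6a, Trib2, Ass1 and Hif1a had log2 ratios of 2.53, 2.15, 1.81 and 1.72.

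The MHC class II genes at the head of the ranking came from the C0306 barcode. H2-Eb1, H2-Ab1, H2-Aa and Cd74 had log2 ratios of 3.64, 3.47, 3.20 and 2.59, and that barcode held 97 of 103, 62 of 63, 129 of 138 and 294 of 350 of their UMIs. Without it the 4 ratios were -0.43, -2.47, -0.70 and -0.01, so that none of them stayed higher in CD4 T cells. Izumo1r, Ly6c1 and Igfbp4 were at 3.23, 2.47 and 2.29 without it.

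The factors that direct the CD4 and CD8 lineages were distributed along that divide. Zbtb7b (chr3:89377644-89394776) had 25 UMIs in 25 CD4 T cells and 2 UMIs in 2 CD8 T cells, a log2 ratio of 4.59 (interval 2.59 to 7.72), with too few UMIs to enter the count of tested genes. Runx3, its counterpart in CD8 T cells, had 22 UMIs in 16 CD4 T cells and 95 in 62 CD8 T cells (-1.16, interval -1.90 to -0.48). Cd40lg had 32 UMIs in 23 CD4 T cells and 3 in 3 CD8 T cells (4.36, interval 2.69 to 6.72), also below the minimum of UMIs. Of the 10 tested genes of the T-lineage factor list, Runx1 was higher and Runx3 lower, with a median of 0.28.

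Among the genes lower in CD4 T cells were members of the cytotoxic list. Of its 14 members 6 reached 50 UMIs, mostly through the CD8 T cells, so their number is set in part by the filter and is not read as a result beside the 1.86% of all genes. Cd8a among them encodes the partner chain of the gate gene Cd8b1. Cd8a was at 0 in CD4 T cells and had 301 UMIs in 100 CD8 T cells, at least 52.0-fold lower. Nkg7, a cytotoxic granule protein, was in 5 CD4 and 98 CD8 T cells (log2 ratio -2.67, interval -3.20 to -2.18), and Ctsw in 8 and 72 (-3.13, interval -4.29 to -2.17). Ctla2a, Fam241a, Cd7, Hopx, Klrd1, Sidt1 and Zyx had log2 ratios from -3.74 to -2.10, and without the C0306 barcode those of Cd7 and Klrd1 moved from -2.64 to -3.92 and from -2.33 to -3.29. Ccl5, a chemokine of effector and memory cells, had a log2 ratio of -2.56, with 85 of its 105 CD4 UMIs in 1 cell.

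Ly6c1 and Ly6c2, neighbouring genes of near-identical surface proteins, went opposite ways. Ly6c1 (chr15:75044018-75048830, minus strand) had 56 UMIs in 28 CD4 T cells and 20 UMIs in 4 CD8 T cells, a log2 ratio of 2.43 (interval 1.67 to 3.25). Ly6c2 (chr15:75108158-75111970, minus strand) had 0 UMIs in CD4 T cells and 485 in 61 CD8 T cells, at least 83.8-fold lower. NK cells had 2 UMIs of Ly6c1 and 772 of Ly6c2. The coding sequences of the first annotated transcript of each differed at 9 of 393 bases. Reads within the coding sequence that cover none of those bases cannot be assigned to either gene, and both counts are uncertain to that extent. The untranslated parts of the transcripts were not compared. The first 120 coding bases are shown because 6 of the 9 differences, in capitals, lie there (GENCODE vM21, GRCm38).
Ly6c1: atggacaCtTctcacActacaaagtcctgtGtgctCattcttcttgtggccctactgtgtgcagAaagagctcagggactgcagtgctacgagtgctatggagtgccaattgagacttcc
Ly6c2: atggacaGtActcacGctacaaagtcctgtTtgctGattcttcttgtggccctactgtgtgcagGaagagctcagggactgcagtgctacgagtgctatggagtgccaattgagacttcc

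For the T-cell machinery few calls were made, as for all tested genes, of which 2.5% were higher and 1.86% lower. None of the 7 genes of the TCR complex was 2-fold apart, with a median log2 ratio of 0.15. Both gates select on Cd3d, Cd3e and Cd3g among them, so this count and median are set in part by the gates. The interval of Cd247 (0.71, 0.26 to 1.15) lay above 0. Of the 18 genes of TCR signalling and costimulation only Cd28 was 2-fold apart, at 1.05 (interval 0.49 to 1.62), and it was at 0.97 with ratios centred on their median. Cd5 was at 0.80 (interval 0.35 to 1.25). Of the 12 naive genes only Igfbp4 was 2-fold apart, with Ccr7 at 0.38, Lef1 at -0.02, Il7r at -0.19, Klf2 at -0.18 and Tcf7 at 0.59. At 6 or more naive list genes lay 73.0% of CD4 T cells (interval 61.4 to 82.6%) and 84.2% of CD8 T cells (76.4 to 90.2%), intervals that overlap. None of the 10 tested activation genes, 10 immediate early genes or 5 chemokine and positioning receptors was 2-fold apart.

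Cytokine receptors and interferon genes showed single differences. Of 11 tested cytokine receptors only Il2rb was 2-fold lower, with 21 UMIs in 11 CD4 T cells and 82 in 45 CD8 T cells (log2 ratio -1.02, interval -1.78 to -0.31), and without the C0306 barcode it was at -0.98. Ifi27l2a, an interferon-induced gene, was higher with 193 UMIs against 132 (1.50, interval 1.17 to 1.83) and Bst2 lower with 17 against 74 (-1.17, interval -2.03 to -0.40). Of the regulatory list 3 of 15 genes were tested, with Izumo1r higher and Il2rb lower. Tnfrsf18 lay at the 2-fold limit, at 1.001 (interval 0.19 to 1.82), and under it at 0.99 without the C0306 barcode and at 0.92 with centred ratios. No Th2 or Th17 gene reached 50 UMIs, and of the follicular helper list 3 genes did, none 2-fold apart.

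The comparison with the 311 NK cells of the library placed the CD4 T cells among a second kind of lymphocyte that CD3 beads do not target. Of 3638 genes tested, 139 (3.82%) were 2-fold or more higher in CD4 T cells and 702 (19.3%) lower, with a median log2 ratio of -0.36. With ratios centred on their median, 283 genes were higher and 439 lower. The ratios below are not centred.

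Igfbp4, Dapl1 and Ccr7 of the naive list were among the highest ratios on the CD4 side. Igfbp4 and Dapl1 were at 0 in NK cells, at least 217-fold and 136-fold higher in CD4 T cells. Ccr7 had 105 UMIs in 47 CD4 T cells and 3 in 3 NK cells (log2 ratio 6.65, interval 5.06 to 8.95). Of the 12 naive list genes, 7 were 2-fold or more higher and Klf2 was lower (-1.09), and with centred ratios 8 were higher and Klf2 was not called. Of the TCR complex Trac and Trbc2 were higher beside the 3 CD3 genes, which the gates set. Other high genes were Izumo1r, Actn1, Ly6c1, Cd5, Ifi27l2a, Nsg2, Ass1, Ly6a and Kcnn4, all at least 47.8-fold by summed counts, or more than that where NK cells were at 0.

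On the other side lay the killing and receptor genes of NK cells. Genes high in NK cells alone reached the minimum of 50 UMIs through them, so the number of cytotoxic genes that were lower is not read as a result. Gzma, a granzyme, was at 0 in CD4 T cells and had 9512 UMIs in 293 NK cells, at least 1105-fold lower, and Prf1, the pore-forming perforin, had 2 UMIs against 618. Klrb1c, Klra8, Klre1 and Klrk1, NK receptor genes, were at 0. Tyrobp and Fcer1g, adaptors of those receptors, had 14 and 10 UMIs in CD4 T cells, of which the C0306 barcode held 12 and 7, and their log2 ratios moved from -6.53 to -9.30 and from -6.68 to -8.38 without it. Of the 14 tested activation genes, 9 were lower than in NK cells with and without centring, beside 19.3% of all genes, among them Cd44, Itgb1, Lgals1 and Id2, under the same filter.

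Against all 13908 other kept barcodes of the Ang II library, most of them B cells, 1130 of 11777 tested genes (9.59%) were 2-fold or more higher in CD4 T cells and 1601 (13.6%) lower. The median log2 ratio was -0.23, or 0.08 with genes at 0 set to the floor of 3 counts. All 3 comparisons use the same 74 cells and are not independent. Cd40lg led, with 32 UMIs in 23 CD4 T cells and 57 UMIs in 44 of all other barcodes (log2 ratio 6.42, interval 5.75 to 7.07), followed by Igfbp4, Trat1, Izumo1r, Ly6c1, Tesc and Icos at 6.36 to 5.96. Of the TCR complex, Cd247, Trac, Trbc1 and Trbc2 were higher, as were the 3 CD3 genes that the rule selects on. Of 18 genes of TCR signalling and costimulation 16 were higher. The 12 lowest were neutrophil genes (Lcn2, Ngp, S100a9, S100a8, Camp) and B-lineage genes (Ebf1, Ly6d, Cd79b, Mzb1, Fcmr, Ms4a1, Bank1), with Cd79b at 0 in CD4 T cells and at least 155-fold lower.

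The TCR segments of the CD4 T cells were many. A Trbv segment, the variable part of the TCR beta chain, was detected in 70 of 74 cells, with exactly 1 segment in 57. The leading segment of each of the 70 cells fell on 18 of the 35 Trbv genes of the matrices, and none led more than 9 cells. Trbv19 led 9 cells (12.9%, interval 6.05 to 23.0%), Trbv13-2 led 8 (11.4%, interval 5.07 to 21.3%) and Trbv5 led 7 (10.0%, interval 4.12 to 19.5%). A Trav segment of the alpha chain was detected in 50 cells. Clonotypes were not read, since segments and not joined sequences were counted.

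**Figure D5:**
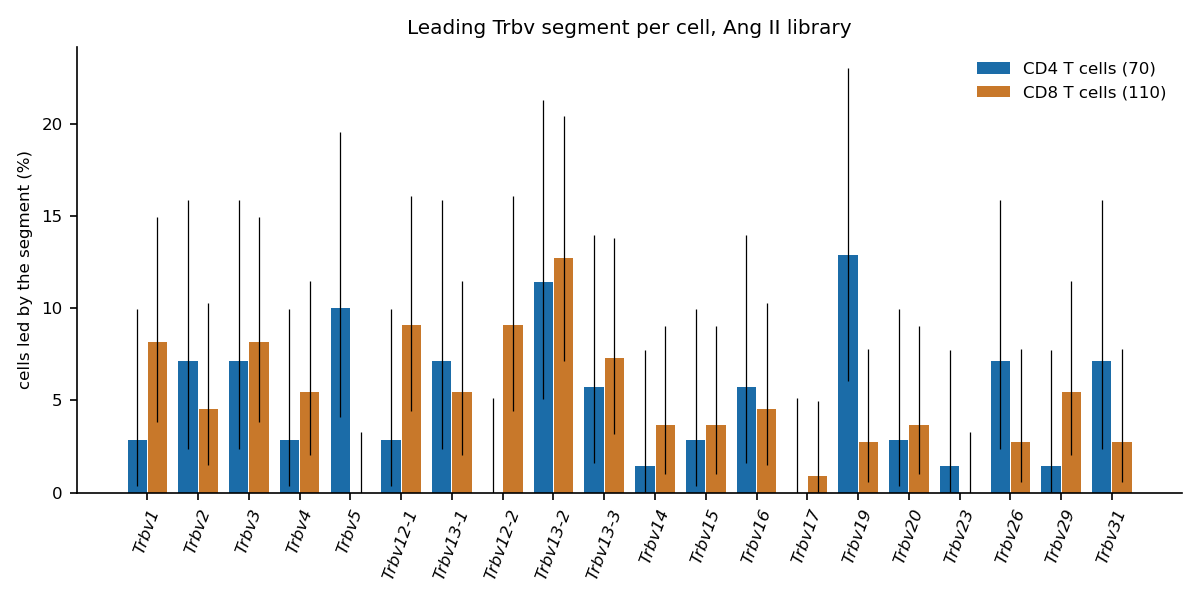
Percent of cells led by each Trbv segment (y axis), the segment with the most UMIs in a cell, for 70 CD4 T cells (blue) and 110 CD8 T cells (orange) of the Ang II library with a Trbv UMI. Lines are Clopper-Pearson 95% intervals. Trbv5 led 7 CD4 and 0 CD8 T cells, and its intervals do not overlap. Trbv12-2 led 0 and 10, and its intervals overlap, as do those of the other segments.

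In CD8 T cells Trbv19 led 3 of 110 cells, Trbv13-2 led 14 and Trbv5 led 0 (interval 0 to 3.30%). Trbv12-2 led 10 CD8 T cells (9.09%, interval 4.45 to 16.1%) and 0 CD4 T cells (interval 0 to 5.13%), and these 2 intervals overlap. These segments were picked after their values were seen, out of 35, and members of the Trbv12 and Trbv13 families resemble each other, so their counts are uncertain. Trbc2 was detected in 75.7% of CD4 T cells (interval 64.3 to 84.9%) and Trbc1 in 29.7% (19.7 to 41.5%), with both in 18 cells. A T cell uses 1 of these 2 constant genes per beta chain. Trbc1 (transcript at chr6:41538218-41539347) and Trbc2 (chr6:41546730-41548352, both plus strand, GRCm38) share their first 120 annotated coding bases, printed once for both transcripts. Reads confined to these bases cannot tell the 2 genes apart, so the choice between them is uncertain.
Trbc1 and Trbc2: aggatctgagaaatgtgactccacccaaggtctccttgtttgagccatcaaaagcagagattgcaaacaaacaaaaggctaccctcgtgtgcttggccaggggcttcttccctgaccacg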

How the data were processed

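Splenocytes depleted with CD3 microbeads were measured in 3 libraries of 10x Genomics 5′ v2 chemistry with TotalSeq-C hashtags. The deposited matrices hold raw UMI counts per barcode for 32285 genes and 6 hashtags, without normalization by the authors. Their headers name Cell Ranger 6.0.0, and the submitters' processing notes name mm10. No source used here names the annotation release. The libraries held 44146350, 59043555 and 63516694 gene UMIs over 18218, 16062 and 20691 barcodes (control, Ang II, B6.SLE123). With 1 library per group, replicate error was not measured.

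The selection rule, the gene lists and the tests were chosen with earlier results of these data known, so no list is independent evidence. Gated cells were summed per library. Shares carry Clopper-Pearson 95% intervals, and log2 ratios of summed levels carry exact conditional intervals. All cover counting error only. Ratios were taken for genes with 50 or more UMIs over both groups. A group at 0 was set to a floor of 3 counts over the group, giving a bound. Named genes were the 12 highest and 12 lowest ratios per comparison, without receptor segments, mitochondrial, sex-linked and gate genes, plus all list members. NK cells were gated on Ncr1 and B cells on Cd79a, without CD3 UMIs. Doublets of different hashtags were removed by the hashtag limit, and those within a hashtag were not. Alternatives changed the limits, hashtag fold, CD3 minimum, UMI minimum, scaling, depth (thinning to 1000 UMIs, with 1500 cells drawn for large groups) and hashtags. A further 2 were chosen after seeing the data: C0303 cells only, and leaving out barcodes with 10 or more H2-Aa UMIs. A planned comparison of Foxp3-positive cells with the others was not made, since 2 cells had Foxp3. Gene positions are from GENCODE vM21 (GRCm38), matched by Ensembl identifier for 32235 genes. Some members of the lists are counted but not named here. The code was tested on simulated data. Python 3.11.15, numpy 2.4.6, scipy 1.17.1, pandas 2.3.3 and matplotlib 3.10.9 were used.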

Additional observations from a re-analysis of the deposited data

Results flagged for a closer look

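The 6 hashtag populations of a library are not replicates of a group, and they mix conditions. Among them, Ang II C0303 stood apart from the other 5 in the share of CD4 T cells (3.02% of kept barcodes), of CD8 T cells (4.95%) and of barcodes with CD3 UMIs but neither co-receptor (2.81%), each being the highest of 6 by a gap that exceeds Dixon's 95% critical value. The NK share of B6.SLE123 C0303 (1.45%) was the lowest of 6 by the same measure, but only just. Its gap was 0.626 of the range, against 0.959 to 0.989 for the 3 T-cell shares. For normally distributed values chance gives such a gap in about 1 in 20 sets, but shares of rare cells that are mostly 0 need not follow that rate. A single cell can give the largest possible gap, as did 1 CD4 T cell in B6.SLE123 C0301 and 1 CD8 T cell in B6.SLE123 C0302. All 6 Ang II barcodes with both co-receptors were also in C0303. In all, 16 sets were examined, and the first 3 shares come from the same cells' hashtag and are not independent. The cause was not tested.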

How the results depend on the processing

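No paired analysis was possible because each group had 1 library. The CD4 T share of the Ang II library was 0.226% (22 cells) with the limits read as UMIs and 0.687% (96 cells) with no limit on Cd79a, Lyz2, Ncr1 and Siglech. Leaving out each hashtag in turn gave 0.0172 to 0.658% in the Ang II library and 0 to 0.00704% in B6.SLE123, log2 ratios of 0.46 to 6.10 over control and 1.59 to 6.85 over B6.SLE123, and 0.608 to 1 CD4 per CD8 T cell. The low end of the Ang II share and of both log2 ratios, and the high end of the cell ratio, came without Ang II C0303, which left 2 CD4 and 2 CD8 T cells. That ratio was also 1 with UMI limits. Without C0303 the gene comparisons, shares of cells with a UMI and receptor shares were not run, since 2 cells remained.

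Counts of genes past 2-fold changed with the number of genes tested, the cells and the scaling. Against CD8 T cells they were 283 higher and 233 lower from 20 UMIs, 13 and 21 from 100 UMIs, 4 and 7 after thinning, and 3 and 5 with UMI limits. Against NK cells they were 321 and 1423, 85 and 334, and 69 and 252 under the first 3 of these, with 457 lower under UMI limits, 283 and 439 with median scaling, and 183 lower with C0303 cells only. Against all other barcodes they were 280 and 891 after thinning and 1878 and 749 with UMI limits, and 623 higher with C0303 cells only. Shares of cells with a UMI fell on thinning, as fewer UMIs were read, to 30.1% (Ccr7), 4.11% (Cd44) and 1.37% (Cxcr5). Cd74 against CD8 T cells turned from 2.59 to -0.0104 without the H2-Aa-rich barcode and to -0.0132 with 2 or more CD3 UMIs, which also removed it. Of 1100 alternative values of the log2 ratios of named genes, 1067 kept the sign, 923 stayed near the reported value, 175 moved and 2 turned sign from a called value. The 74 cells limit all of this to genes of moderate level.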
